A study of Homo sapiens with 8 samples.

Results

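The clustered protocadherins and the vault RNA genes of 5q31 were followed through a SON TSA-seq experiment in 786-O cells, an established human clear cell renal carcinoma line that depends on HIF-2α. Their members here are the deposited genomic windows on chromosome 5 that lie wholly within 139500001 to 141500000 (hg19), 172 of 278316 windows of 100 kb and 352 of 556938 windows of 50 kb, or 524 of 835254 in all. Windows were taken by position alone, within an interval chosen with earlier results of these data known. The interval was divided at the positions named for its gene groups: VTRNA1 at 140.09 to 140.11 Mb, PCDHA at 140.16 to 140.39 Mb, PCDHB at 140.43 to 140.63 Mb and PCDHG at 140.71 to 140.89 Mb, with the stretches between them and a flank on either side. A window was assigned to the segment that holds its midpoint.

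Cells were kept in serum-containing RPMI under atmospheric oxygen. For 3 h they received either PT2399 at 2 µM, which keeps HIF-2α from pairing with ARNT, or the same volume of DMSO. SON, a core protein of nuclear speckles, was then labelled with an antibody that directs tyramide-biotin onto nearby DNA. The series holds 8 libraries, 2 SON pulldowns and 2 inputs for each treatment, and the titles of 4 libraries disagree with their antibody or treatment fields. Titles were followed, and the direction of change rests on the column names control and treatment, with DMSO as control.

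Clustered protocadherins are cadherin-family adhesion proteins of the cell surface, best known from neurons, where each cell switches on only a few of the many alternative promoters and so acquires a surface identity. In the alpha and gamma clusters, each variable exon with its own promoter is spliced to exons shared by the cluster, whereas the beta genes stand alone. CTCF and cohesin bind at many of these promoters and at distal enhancers, and unused promoters are usually methylated. Vault RNAs are short transcripts of RNA polymerase III, named after the vault ribonucleoprotein particle of the cytoplasm. Nuclear speckles are bodies rich in splicing factors, and chromatin of gene-dense, active regions tends to lie close to them.

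Many promoters within a cluster share a short sequence word, shown here because the similarity of the copies within each cluster is visible around it. Sequences came from a RefSeq promoter table of GRCh38.p14, which covers 250 bases before to 50 after each gene start and whose positions cannot be set against the hg19 windows. It held 13 of 15 alpha genes, 14 of 16 beta genes and 20 of 22 gamma genes. In each cluster the word of 8 bases present in most promoters, on either strand, was taken (where 2 tied, the one rarer over all genes of the table), and capitals mark that word within 40 bases of the coding strand. In the alpha cluster it was ATGTCGCT.
PCDHA1, chr5:140786082-140786121, plus strand: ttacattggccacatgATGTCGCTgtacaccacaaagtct
PCDHA5, chr5:140821538-140821577, plus strand: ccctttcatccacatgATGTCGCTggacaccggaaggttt
PCDHA7, chr5:140834168-140834207, plus strand: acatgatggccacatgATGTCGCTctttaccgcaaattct
PCDHA12, chr5:140875240-140875279, plus strand: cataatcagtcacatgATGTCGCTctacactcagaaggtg
The word was found in 9 of the 13 alpha genes, in 0 beta and 0 gamma genes, in 0 of 30 flanking genes and in 77 of all 27305 genes of the table (0.282%).

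In the beta cluster the most shared word was GTGGCGCT.
PCDHB2, chr5:141094540-141094579, plus strand: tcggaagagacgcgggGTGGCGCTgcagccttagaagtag
PCDHB7, chr5:141172562-141172601, plus strand: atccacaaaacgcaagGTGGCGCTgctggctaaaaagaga
PCDHB10, chr5:141192295-141192334, plus strand: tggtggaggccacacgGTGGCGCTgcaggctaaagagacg
PCDHB15, chr5:141245310-141245349, plus strand: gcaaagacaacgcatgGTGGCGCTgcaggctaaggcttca
It was found in 13 of 14 beta genes, all but PCDHB1, in 0 alpha and 0 gamma genes, in 1 of 30 flanking genes and in 378 of all genes (1.38%). In the gamma cluster the most shared word was GCCGCTGT.
PCDHGA1, chr5:141330401-141330440, plus strand: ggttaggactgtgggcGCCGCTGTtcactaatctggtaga
PCDHGB4, chr5:141387615-141387654, plus strand: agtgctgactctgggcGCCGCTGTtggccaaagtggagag
PCDHGB6, chr5:141407922-141407961, plus strand: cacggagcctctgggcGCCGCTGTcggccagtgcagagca
PCDHGC4, chr5:141484950-141484989, plus strand: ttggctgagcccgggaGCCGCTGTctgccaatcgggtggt
It was found in 11 of 20 gamma genes, in 0 alpha and 0 beta genes, in 3 of 30 flanking genes and in 542 of all genes (1.98%). The 3 words hold the letters CGCT in common. Over the first promoter of each gene that held its word, the word began a median of 52, 65 and 67 bases before the gene start in the alpha, beta and gamma clusters. The words were picked from these promoters for being shared, so the counts are descriptions, and a match is no evidence of binding.

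The base composition of the promoters is given as a description, with no test. The median GC content over the 300 bases was 37.3% for alpha (13 promoters), 40.8% for beta (14 promoters) and 47.3% for gamma (25 promoters of 20 genes). It was 63.7% for 32 promoters of 30 flanking genes and 58.7% for all 35116 promoters of the table. Single promoters overlapped widely, with 33.7% to 66% in alpha, 33.3% to 46.3% in beta, 32.3% to 65% in gamma and 33% to 75% in the flanking genes.

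SON levels are log2 concentrations, given by the authors as 1 mean per treatment and window, so no value carries a standard deviation or a number of replicates, and the depth of each library is unknown. Windows of 100 kb are shifted by 10 kb between 9 sets and windows of 50 kb by 5 kb, so neighbouring values share reads and are not replicates. Values of -0.07 for DMSO and -0.11 for PT2399 are the lowest in the tables and are called the floor. A window with at least 2 in both treatments is called measured. Over all measured 100 kb windows of the genome the median change, PT2399 minus DMSO, was -0.13, and changes at 5q31 are also given relative to that shift.

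The interval held a block without measurable SON signal, enclosed by chromatin of high signal. All 19 of the 100 kb windows of PCDHB, all 3 of the stretch between PCDHA and PCDHB and 21 of the 22 of PCDHA were at the floor in both treatments. In the flanks, by contrast, 0 of 99 windows were at the floor. The exception in PCDHA, at 140110001 to 140210000, reaches into the stretch before the cluster and stood at 3.67 with DMSO and at the floor with PT2399. Of the windows from PCDHA through PCDHB, 97.7% were thus at the floor in both treatments, against 61.7% of all windows and 70.7% of the remaining windows of chromosome 5.

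The same block appeared in the smaller windows. At 50 kb, 37 of 37 PCDHB windows and 40 of 42 PCDHA windows were at the floor in both treatments. The exceptions were the first PCDHA window, at 140135001 to 140185000, with 2.33 for DMSO and the floor for PT2399, and the window at 140360001 to 140410000, with the floor for DMSO and 2.39 for PT2399. Neither passed an FDR of 0.01 in the authors' deposited table, where they had 1 and 0.372. For windows at the floor with DMSO a fall in SON signal was therefore not detectable in these tables, whereas a rise was. No window with its midpoint in PCDHA or PCDHB was called higher at either size. The sources used here do not say how reads aligning to several of the similar protocadherin copies were counted.

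**Figure D1:**
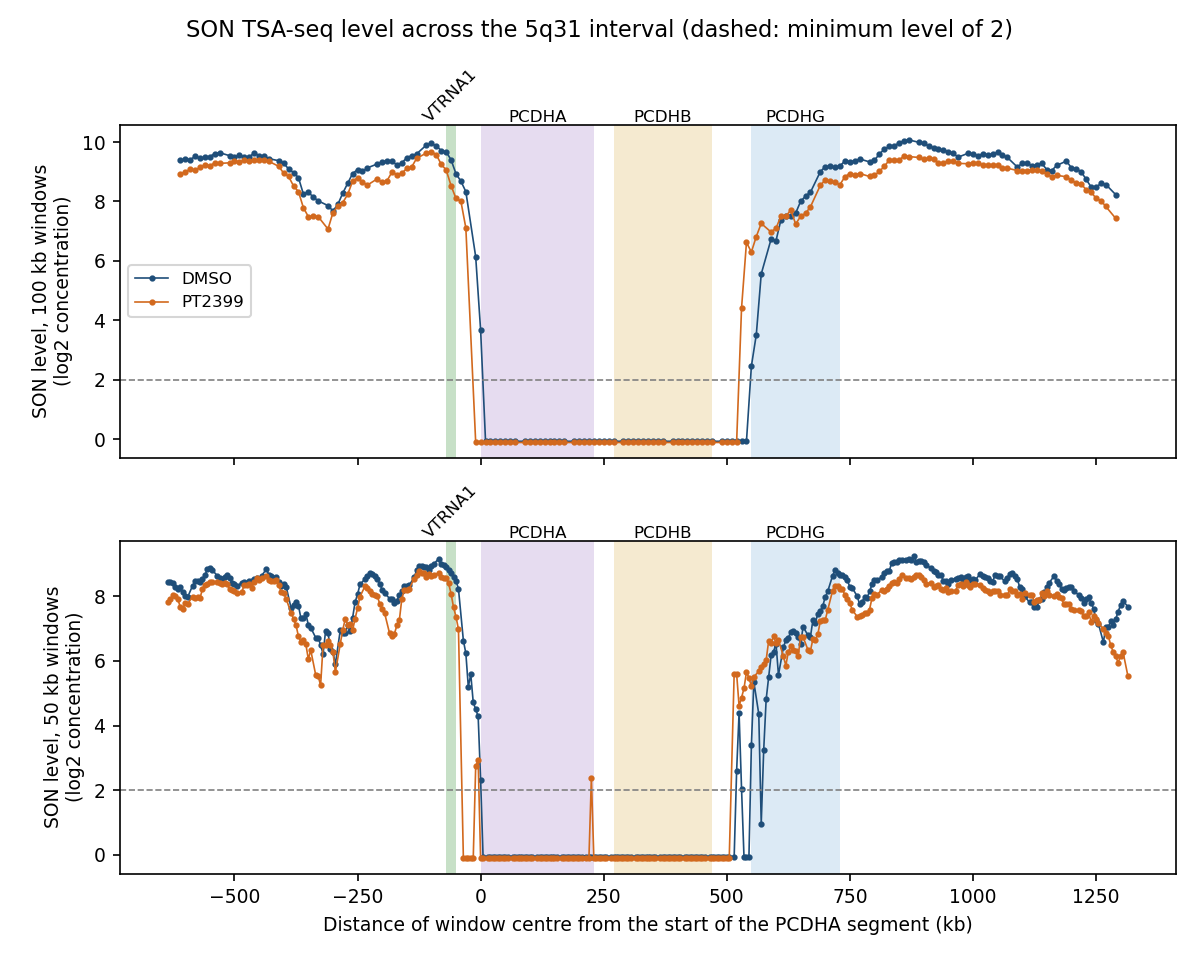
SON level (log2 concentration, the authors' mean per treatment) of each 100 kb window (top) and 50 kb window (bottom) against the distance of its centre from the start of the PCDHA segment. Points are windows joined by lines in blue for DMSO and orange for PT2399, shading marks the gene segments, and the dashed line is the minimum of 2. PCDHB and nearly all of PCDHA lie at the floor of -0.07 and -0.11, between flanks that reach 9.95 and 10.07 with DMSO at 100 kb.

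The chromatin on either side had high SON signal, and all 99 of its 100 kb windows lay above the upper quartile of all windows, which was 7.0 with DMSO and 6.87 with PT2399. In the upstream flank, which ends at VTRNA1, the 49 windows of 100 kb ran from 7.68 to 9.95 with DMSO (median 9.38) and from 7.07 to 9.68 with PT2399 (median 9.0). In the downstream flank, which follows PCDHG, the 50 windows ran from 8.23 to 10.07 with DMSO (median 9.46) and from 7.43 to 9.53 with PT2399 (median 9.06). The DMSO medians exceeded 88.5% and 89% of all 100 kb windows of the genome. The upstream flank had its lowest mean level at 139800001 to 139900000, 7.86 with DMSO and 7.07 with PT2399, and its highest at 140010001 to 140110000, 9.95 and 9.68, in a window that reaches over the VTRNA1 segment. Within each treatment the ranges of the flanks overlapped, so their order is not read as a difference.

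VTRNA1 spans 20 kb, so no window resolved its own level, and the 100 kb windows centred in it lay at the level of the flanks. Its 3 windows of 100 kb stood at 9.67, 9.40 and 8.93 with DMSO and at 9.06, 8.53 and 8.10 with PT2399. In the stretch from VTRNA1 to PCDHA, levels at 100 kb fell off from 8.68 through 8.33 to 6.14 with DMSO. The corresponding PT2399 values were 8.0, 7.11 and the floor. The 50 kb window at 140100001 to 140150000, which holds part of VTRNA1 and none of the upstream flank, stood at 6.63 with DMSO and at the floor with PT2399.

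PCDHG was the only protocadherin cluster in the tables with measured windows, and its signal sloped upwards along the cluster. All 17 of its 100 kb windows were measured, with a DMSO median of 7.61, the lowest being 2.46 at 140660001 to 140760000 and the highest 9.20 at 140840001 to 140940000. With PT2399 the median was 7.5 and the range 6.30 to 8.72. With DMSO the last 8 windows overlapped the flanks in level, whereas the 9 before them, at 7.61 or below, lay under every flank window.

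**Figure D2:**
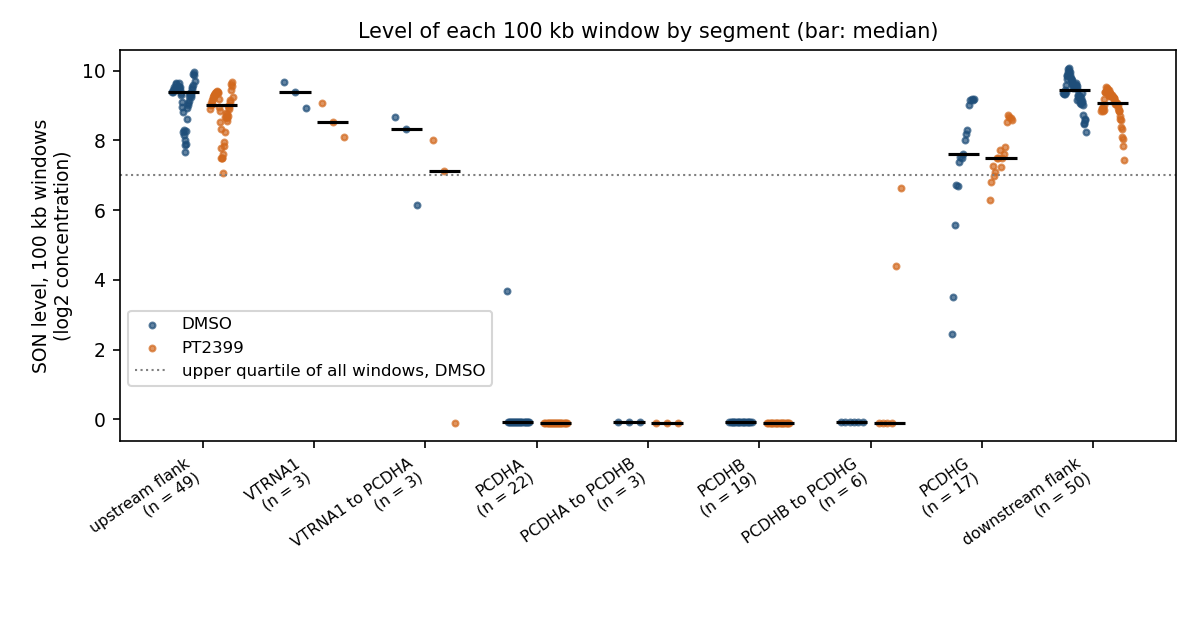
SON level (log2 concentration) of every 100 kb window, grouped along the interval, with DMSO in blue, PT2399 in orange and the median as a black bar. The dotted line is the upper quartile of all windows of the genome with DMSO, 7.0. Flank and VTRNA1 windows lie above it in both treatments, PCDHG windows straddle it, and nearly all PCDHA and PCDHB windows lie at the floor.

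PT2399 went with a lower SON signal in both flanks, though not next to the block on the PCDHG side, as described below. The 121 measured 100 kb windows divided into 114 that were lower and 7 that were higher, with a median change of -0.37 against -0.13 for all measured windows of the genome. Lower windows thus made up 94.2% here, against 67.5% of all measured windows. In the upstream flank all 49 windows were lower, by a median of -0.32 (quartiles -0.46 and -0.25). In the downstream flank all 50 were lower, by a median of -0.41 (quartiles -0.50 and -0.31), so that the median window kept 75% of its DMSO level. Relative to the genome-wide shift the medians were -0.20 and -0.29. Of the 99 flank windows, 92 (92.9%) stayed below 0 after that shift, against 49% of all measured windows. At 50 kb the flank medians were -0.30 and -0.44. There 189 of 207 flank windows (91.3%) were below 0, against 64.3% of all measured windows.

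Windows past an FDR of 0.01 were counted from the authors' deposited tables. At 100 kb, 9 windows of the interval were called lower, 5.23% of its windows against 0.614% of all windows, and 7.44% of its measured windows against 1.55% of all measured ones. The single higher call, in a window that DMSO left at the floor, made up 0.581% of the interval's windows against 0.139% of all windows, and 0 measured windows were called higher against 0.0853% of all measured ones. At 50 kb, 3 windows were called lower, 0.852% against 0.176% of all windows, and 1.20% of measured windows against 0.357%. At this size 0 windows were called higher, against 0.0503% of all windows and 0.0291% of measured ones, while 5 windows were higher and 65 lower at an unadjusted p under 0.05 in the authors' deposited DiffBind tables. These were 1.42% and 18.5% of the interval's windows, against 2.16% and 4.7% of all windows.

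The calls gathered in a few places. The longest called region, in the downstream flank at 140920001 to 141110000, joined 7 windows from 7 of the 9 sets, with changes from -0.59 to -0.51. Its best window, at 140970001 to 141070000, stood at 10.05 with DMSO and 9.53 with PT2399, 69.7% of the former, and had an FDR of 0.00113 in the authors' deposited table. This is also where the interval's SON level peaked, with 10.07 for DMSO at 140980001 to 141080000. In the upstream flank 1 window was called, at 139920001 to 140020000, with 9.37 for DMSO and 8.70 for PT2399, for which the authors' deposited table gives an FDR of 0.00725.

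The VTRNA1 genes lay in the called window with the largest drop at 100 kb. At 140050001 to 140150000 the level was 9.40 with DMSO and 8.53 with PT2399, or 54.7% of the former (difference -0.87). The authors' deposited table gives it an FDR of 0.00358. Both neighbours with their midpoints in VTRNA1 were lower too, by -0.61 and -0.83, with FDRs of 0.0139 and 0.0825 in the authors' deposited table. In all, 8 windows of 100 kb held the whole VTRNA1 segment. The 3 centred before it differed by -0.27, -0.30 and -0.46 (FDRs of 0.335, 0.229 and 0.034 in the authors' deposited table) and the 2 centred after it by -0.68 and -1.22 (0.303 and 0.191). Differences over windows holding VTRNA1 thus ran from -0.27 to -1.22, and 1 of the 8 was called. The 5 VTRNA1 windows of 50 kb ran from 8.48 to 8.91 with DMSO and from 7.37 to 8.56 with PT2399, so that the groups overlapped. The differences grew towards PCDHA, being -0.35, -0.43, -0.64, -0.93 and -1.11 in order of position. The last of these windows, at 140085001 to 140135000, stood at 8.48 with DMSO and 7.37 with PT2399, 46.3% of the former, and was called with an FDR of 0.00549 in the authors' deposited table. The first, at 140065001 to 140115000, had 0.353 in that table.

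The remaining 50 kb calls were in the downstream flank. At 141015001 to 141065000, within the 100 kb region called above, the level was 9.25 with DMSO and 8.59 with PT2399, and the authors' deposited table gives an FDR of 0.00788. At 141450001 to 141500000, the last window of the interval, the level was 7.68 with DMSO and 5.52 with PT2399, 22.4% of the former, with an FDR of 0.00873 in the authors' deposited table. The 100 kb window over that end, at 141400001 to 141500000, differed by -0.80 and was not called, having 0.269 in the authors' deposited table.

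**Figure D3:**
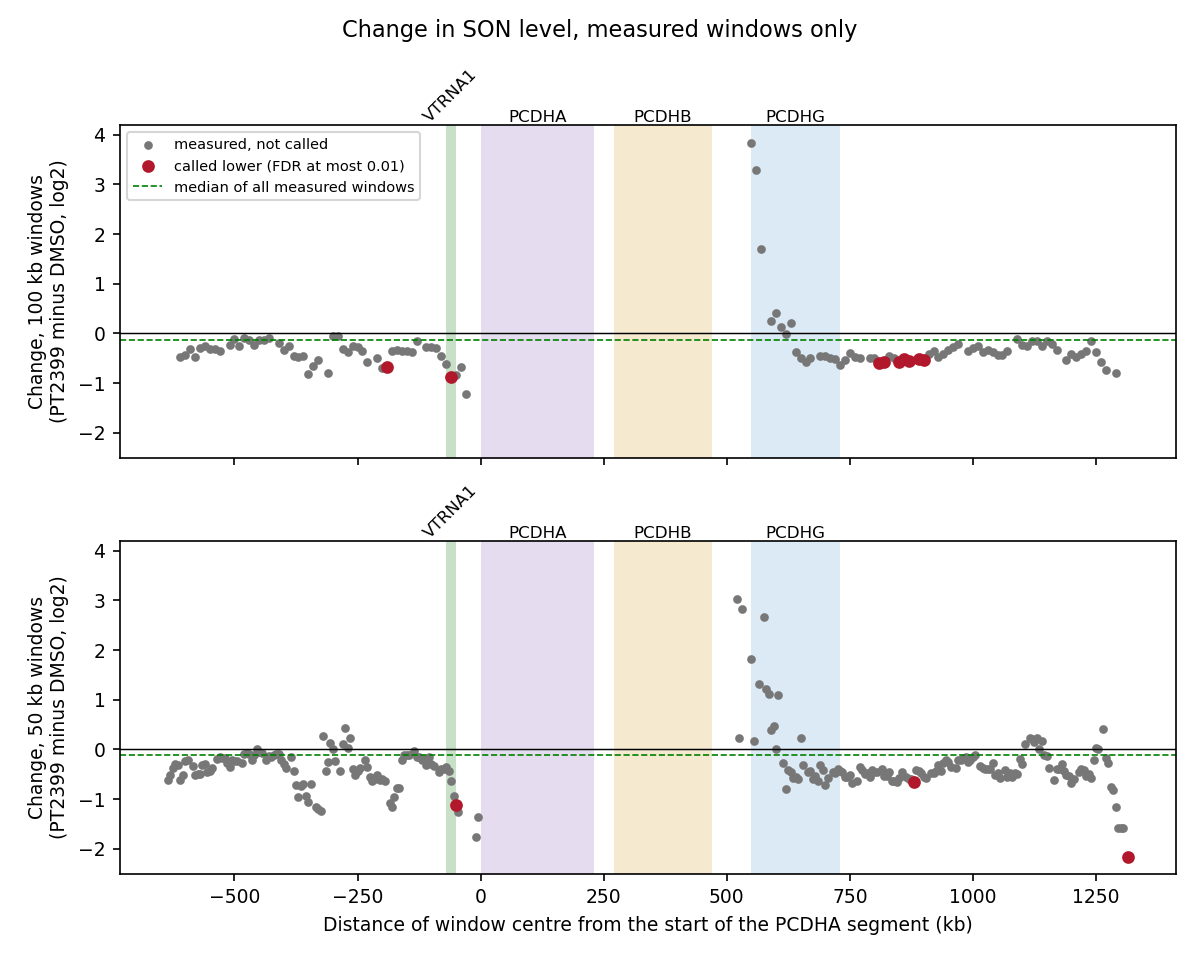
Change in SON level, PT2399 minus DMSO (log2), of the measured 100 kb windows (top) and 50 kb windows (bottom) against the distance of the window centre from the start of the PCDHA segment. Red points are windows called lower at an FDR of at most 0.01 in the authors' deposited tables, the solid line is 0 and the green dashed line the genome-wide median of -0.13 or -0.12. All 100 kb flank windows lie below 0. The highest points are at the near end of PCDHG at 100 kb, up to 3.84, and in the stretch from PCDHB to PCDHG at 50 kb, up to 3.02.

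The lower calls at 100 kb depended on the scaling between treatments. When each set was recentred on the median change of its measured windows, with the error implied by the deposited change and p, 0 of the 9 lower calls at 100 kb and 0 of the 3 at 50 kb were kept at 0.01. Calls were also lost across the genome, where the lower share of measured windows went from 1.55% to 0.161% at 100 kb and from 0.357% to 0.0403% at 50 kb. Benjamini-Hochberg adjusted p-values were then 0.0493 for the VTRNA1 window at 100 kb, 0.0705 for the best downstream window and 0.115 for the upstream one. The recentred changes of these windows were -0.75, -0.39 and -0.55. Without recentring, the implied error returns the deposited p of each called window, so only the adjustment differed. Adjusted anew within each set over measured windows, these p-values gave 9 lower calls at 100 kb and 0 at 50 kb. At 50 kb the effect of scaling on the calls could therefore not be told.

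The edges of the floor block did not lie at the same place in both treatments. In union, the 100 kb windows at the floor covered 140120001 to 140750000 with DMSO and 140100001 to 140730000 with PT2399, 630 kb each. With PT2399 the block thus began and ended 20 kb farther towards the VTRNA1 side. Its start with PT2399 lay inside the VTRNA1 segment, and its end lay inside the PCDHG segment in both treatments. At 50 kb it covered 140140001 to 140730000 with DMSO and 140100001 to 140690000 with PT2399, 590 kb each. The outer ends were thus displaced by 40 kb. All 100 kb windows inside these spans were at the floor, while each 50 kb span also held 3 windows off it. With DMSO these began from 140655001 to 140665001, near the right end. With PT2399 they began at 140125001 and 140130001, near the left end, and at 140360001. Inward of those near the ends, the floor began at 140140001 with DMSO and 140135001 with PT2399, and ended at 140700000 and 140690000. The edges then differed by less than the outer ends.

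On the VTRNA1 side, signal present with DMSO was at the floor with PT2399. The 100 kb window at 140100001 to 140200000 stood at 6.14 with DMSO and at the floor with PT2399, and had 0.0869 as its FDR in the authors' deposited table. At 50 kb the 5 windows that start from 140100001 to 140120001 stood at 6.63, 6.24, 5.20, 5.59 and 4.72 with DMSO, all at the floor with PT2399. The lowest FDR among them was 0.0253 in the authors' deposited table. Nearer to PCDHA the pair of windows starting at 140125001 and 140130001 had signal in both treatments, 4.51 and 4.29 with DMSO and 2.74 and 2.93 with PT2399, so the drop was not even along the edge. None of these windows was called.

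On the PCDHG side, signal appeared with PT2399 where DMSO was at the floor. In RefSeq gene order this stretch, between PCDHB15 and PCDHGA1, holds SLC25A2, a mitochondrial ornithine carrier, and TAF7, a subunit of the general transcription factor TFIID. The 100 kb window at 140650001 to 140750000 was at the floor with DMSO and at 6.62 with PT2399, and was called higher, with 0.006 as its FDR in the authors' deposited table. Its neighbour at 140640001 to 140740000 was at the floor with DMSO and at 4.41 with PT2399, without a call (0.205 in the authors' deposited table). At 50 kb, 4 windows between 140650001 and 140730000 were at the floor with DMSO and at 5.15 to 5.66 with PT2399, the lowest FDR being 0.0951 in the authors' deposited table. The window at 140660001 to 140710000, between them, had 4.39 with DMSO and 4.61 with PT2399. No fold is given against a level at the floor.

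Windows that crossed the floor made up a smaller share here than in the whole genome, which was not tested. At 100 kb, 2 of 172 windows of the interval fell from at least 2 with DMSO to the floor, or 1.16%, against 2.16% of all windows, and 2 rose from the floor to at least 2, again 1.16%, against 2.41%. At 50 kb the shares were 1.70% against 2.80% for windows that fell to the floor and 1.42% against 3.12% for those that rose from it.

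**Figure D4:**
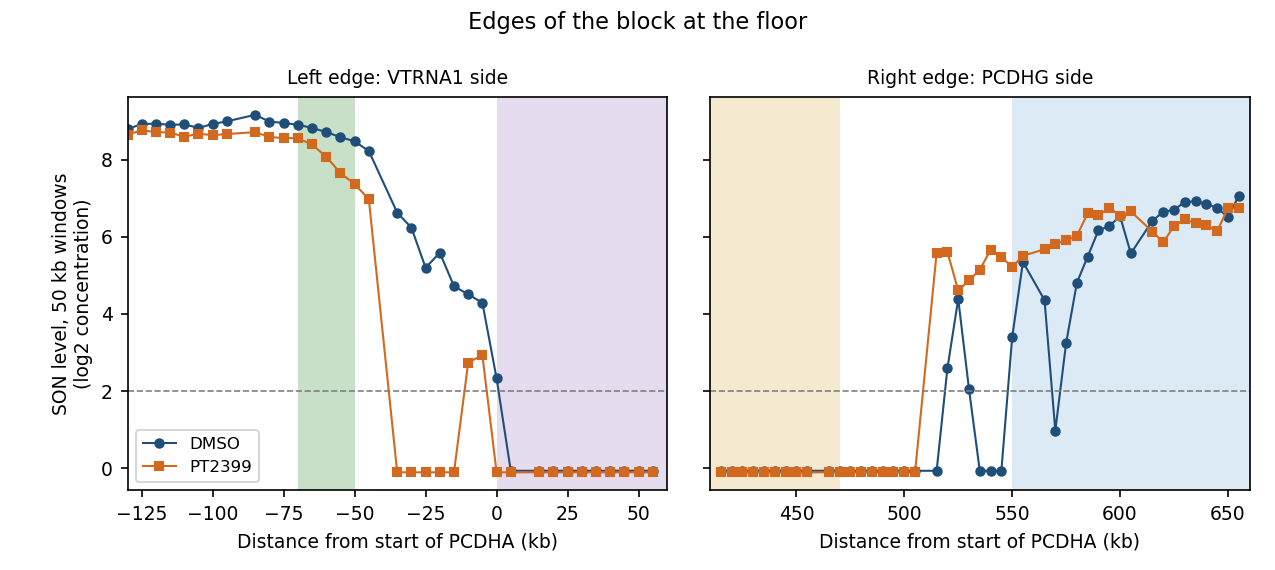
SON level (log2 concentration) of the 50 kb windows at both ends of the floor block, against distance from the start of PCDHA, with DMSO in blue circles and PT2399 in orange squares. Green shading is VTRNA1, purple PCDHA, yellow PCDHB and blue PCDHG, and the dashed line is the minimum of 2. On the left DMSO windows at 4.72 to 6.63 face PT2399 windows at the floor, and on the right PT2399 windows at 5.15 to 5.66 face DMSO windows at the floor.

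Within PCDHG the direction of change turned along the cluster. At its near end, the windows at 140660001, 140670001 and 140680001 went from 2.46 to 6.30, from 3.52 to 6.82 and from 5.56 to 7.26, all higher with PT2399. From the window at 140750001 onwards all 9 windows were lower, by -0.63 to -0.37. No PCDHG window was called at either size, and the lowest FDR was 0.168 at 100 kb and 0.112 at 50 kb in the authors' deposited tables. The median change over the cluster was -0.37 at 100 kb and -0.42 at 50 kb. It covers windows of both directions, and single sets turned its sign, with medians up to 1.67 at 100 kb and 0.12 at 50 kb. The 17 PCDHG windows of 100 kb are split over 9 sets, so each single-set median rests on few windows. The 1.67 came from the windows at 140660001 and 140760000, with changes of 3.84 and -0.50.

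The authors' deposited gene lists for lower windows were searched for the genes of the interval. VTRNA1-1, VTRNA1-2 and VTRNA1-3 were in both the 100 kb and the 50 kb list. Of the protocadherins of the clusters, 0 of 15 alpha, 0 of 16 beta and 0 of 22 gamma genes were in either list. No window with its midpoint in any of these clusters was called lower. At 100 kb, 95.5% of PCDHA and 100% of PCDHB windows were at the floor with DMSO, where a fall was not detectable. The absence of alpha and beta genes from the lists therefore does not show an absence of change. Of 33 flanking genes, 15 (45.5%) were in the 100 kb list and 5 (15.2%) in the 50 kb list, against 4.27% and 1.10% of all 20056 protein-coding genes of the name table. The 33 include SLC25A2 and TAF7, which lie between PCDHB15 and PCDHGA1 rather than in a flank and were in neither list. Neighbouring genes share windows, so these counts are not independent.

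In the order of the RefSeq table, several of the listed flanking genes were neighbours of one another, and none was placed in a window here. Upstream, EIF4EBP3, SRA1, APBB3 and SLC35A4, then TMCO6 and CD14, the monocyte receptor for lipopolysaccharide, were in the 100 kb list. Next to VTRNA1 the 100 kb list held DND1, HARS1 and HARS2, the cytosolic and mitochondrial histidyl-tRNA synthetases, and ZMAT2, a splicing factor. Downstream of PCDHG it held DIAPH1, an actin-nucleating formin, HDAC3, a histone deacetylase, and RELL2, FCHSD1 and ARAP3, of which all but DIAPH1 were also in the 50 kb list. NDFIP1, an adaptor of Nedd4-family ubiquitin ligases at the end of the interval, was in the 50 kb list only. PCDH1 and PCDH12, protocadherins outside the clusters that lie in the downstream flank in this gene order, were in neither list.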

How the data were processed

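Libraries of SON TSA-seq, made after DMSO or PT2399, were grouped by sample title, with 2 libraries for each of 4 groups. Bowtie2, Picard, DiffBind, bedtools and hg19 appear in the submitters' processing notes without versions or roles, and the sources used here do not say how inputs entered or libraries were scaled. Each window has, per the file headers, log2 concentrations for control and treatment, their log2 fold, and a p-value with its FDR, all as deposited by the authors. Changes were taken as treatment minus control concentration, which matched the deposited fold to within 0.01 apart from its sign. The threshold was an FDR of 0.01, and called windows overlapping by at least 1 bp were merged. Library values were not analysed here, so no test was run across libraries, and the labels do not say that replicates came from separate cultures.

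The members and gene lists were chosen with earlier results of these data known. Named regions were all called windows and, in each segment, those highest or lowest in level or change; named genes were list members in the authors' deposited gene lists, whose older symbols were updated through a RefSeq table of GRCh38 (982 of 1023 and 251 of 258 matched), used for names and order only. Promoter sequences are from RefSeq, GRCh38.p14. For recentring, the standard error was the absolute change over the normal quantile of its p-value, with the median of 20 level bins where the change was under 0.1 or p was at least 0.5, and p-values were adjusted within each set over measured windows; this was tested on simulated data. Alternatives covered thresholds, adjustment over all sets, single sets, minimum levels, recentring, assignment of windows and window size. Software was Python 3.11.15 with pandas 2.3.3, numpy 2.4.6 and scipy 1.17.1, and matplotlib 3.10.9 for figures.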

Additional observations from a re-analysis of the deposited data

How the results depend on the processing

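No paired analysis was possible because the tables hold 1 mean per treatment and no values per library. Implied errors were chosen after seeing the data. Called windows, 9 lower and 1 higher at 100 kb and 3 and 0 at 50 kb, became 18 lower at an FDR of 0.05 and 27 at 0.1 at 100 kb, 13 and 19 at 50 kb, with 2 higher at 50 kb at 0.1. At 0.001 all were 0. With adjustment over all sets together there were 0 higher at 100 kb and 0 lower at 50 kb. Single sets gave 0 to 2 lower and from 0 higher at 100 kb, and 0 to 1 lower at 50 kb, since each has fewer windows. Measured windows alone gave 0 higher, which was fixed beforehand because the window called higher was at the floor with DMSO. Implied errors were computed for measured windows only, so 0 higher at 100 kb was fixed there too. With implied errors, and adjustment within each set over measured windows, 0 lower were called at 50 kb. After recentring there were 0 lower at either size. The VTRNA1 median of -0.83 at 100 kb was -0.65 over windows that hold the whole segment and up to -0.61 in single sets. PCDHG medians reversed to 1.67 and 0.12 in single sets, each over few windows. At 50 kb, the median from VTRNA1 to PCDHA was -5.07 with no minimum and -1.77 in 1 set against -1.36, and that from PCDHB to PCDHG was 0.22 at a minimum of 4, 0.09 with none and 0.22 in 1 set against 2.82. Over 50 kb windows wholly inside, floor shares were 100% for PT2399 before PCDHA and 66.7% for DMSO before PCDHG. The former rests on a single window, at 140110001 to 140160000. The 50 kb gene list held 5 of the 33 flanking genes and 0 of the 12 regulators. Beyond the smaller number of windows in single sets, the limit to measured windows and the renewed adjustment, the cause was not tested. A value counted as moved outside the quartile range over windows, or by over 10 percentage points for floor shares, and levels at 50 kb were lower since a smaller window holds less signal. The flank medians stayed below 0 in every setting run.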

Other observations

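The windows next to the interval had median changes nearer to 0 than its flanks. In the 500 kb before it, 37 windows of 100 kb had a median change of -0.11, with DMSO levels from 8.46 to 10.58, and in the 500 kb after it 37 windows had a median of 0.08, with DMSO levels from 6.76 to 7.97. No window of 100 kb was called in either stretch, and the difference from the interval was not tested. The length of the floor run was common. Of 1171 runs of 100 kb windows at the floor in both treatments, 431 were at least as long as the 610 kb run over PCDHA and PCDHB. High signal on both sides was rarer: 12 runs had a mean of both treatments reaching 9 within 300 kb of both ends, and 4 of these were at least that long.

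VTRNA2-1, a vault-like RNA gene outside the interval on the same chromosome arm, was in both of the authors' deposited gene lists. MVP, TEP1 and PARP4, the proteins of the vault particle, were in neither. Of 12 protocadherins outside the clusters 0 were listed, and of 12 regulators of protocadherin promoter choice, among them CTCF and the cohesin subunits, only SETDB1, a histone methyltransferase, was listed, at 100 kb. The lists held 4.27% and 1.10% of all protein-coding genes, so the counts for each set of 12 are near the background. Of the 7 vault genes, 4 (57.1%) were in each list. The VTRNA1 genes are neighbours and vault RNAs are not protein-coding, so that share has no matching background here.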
